A study of Mus musculus with 25 samples.

Results

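The 33 genes described here make cholesterol and fatty acids or set the pace at which cells do so, and all 33 were found among the 30749 genes of the deposited table. They were taken from a fixed list of names: 7 enzymes from acetyl-CoA to farnesyl diphosphate, 3 from farnesyl diphosphate to lanosterol, 8 from lanosterol to cholesterol, 7 regulators and carriers of sterols, and 8 enzymes that make, elongate or desaturate fatty acids. The list was chosen with earlier results of these data known. All 33 passed the filter on low counts, at least 10 normalised counts in at least 3 libraries, which left 17216 genes in the test.

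Cholesterol is built from acetyl-CoA through mevalonate, isoprenoids, squalene and lanosterol. When sterol in the endoplasmic reticulum is low, SCAP carries the precursors of the SREBP transcription factors to the Golgi, where they are cut, and the released fragments switch on these enzymes. INSIG proteins hold SCAP back when sterol is plentiful, and liver X receptors, which sense oxidised sterols, turn on efflux genes and Mylip, which encodes a ligase that marks lipoprotein receptors for breakdown. Fatty acids start from the citrate that ATP citrate lyase splits, and are then elongated and given double bonds by separate enzymes of the endoplasmic reticulum. Macrophages rely on these routes for membranes and for lipid mediators, and in the brain, where little cholesterol crosses in from the blood, microglia also take up cholesterol from debris and hand it on.

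The RNA came from macrophages sorted out of mouse glioblastoma, a malignant tumour of the brain. Microglia, which live in the brain from early life, and monocyte-derived macrophages (MDM), which come in with the circulation, were taken from tumours labelled type 1 or type 2 that arose spontaneously (T1s, T2s) or were transplanted (T1t, T2t). Microglia had 3 libraries in each of the 4 classes, 12 in all, and MDM had 2 for T1s, 4 for T1t, 1 for T2s and 2 for T2t, 9 in all. Microglia of normal brain were not analysed here. The labels give no strain, genotype, age, driver mutation, sort gate or number of animals, and no treatment. Whether replicate libraries stem from different mice is not stated, so the p-values rest on a spread that may be technical. Libraries are named by class, cell type and the number in the column names of the table. Values are normalised read counts (reads divided by the library's size factor), and fold changes are differences of log2(normalised count + 1) ± the standard error of limma-trend, with Benjamini-Hochberg adjustment over the 17216 genes and a threshold of 0.05.

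Libraries held 26530069 to 50365607 reads, and the 33 genes together took 0.0881% to 0.200% of reads in MDM and 0.0722% to 0.156% in microglia. The sort left its mark on the lineage lists: 10 of 10 microglia markers were lower and 10 of 10 MDM markers higher in MDM, and none was at 0 in any library. Transcripts of T and NK cells also moved with the cell type. All 16 such markers were higher in MDM, their summed level was 14738 to 334598 normalised counts in MDM against 119 to 7098 in microglia, and 0 of 16 was at 0 in any MDM library. In T1t MDM 1 to 4 and T2t MDM 1 the sum was 279360 to 334598, above the summed 10 MDM markers of the same libraries (91162 to 159693), and the 10 microglia markers summed to 13298 to 34677. In the other 4 MDM libraries the T and NK sum was 14738 to 46084 and the microglia marker sum 95328 to 232750. B cell markers were higher in MDM for 8 of 9. Dendritic cell markers were higher for 9 of 10. Each comparison with MDM is therefore also given without those 5 libraries where it changes. No T1t MDM are then left, so such values rest on T1s, T2s and T2t, and the T1t microglia leave the comparison too. In bulk samples fewer cells of a type and less RNA per cell cannot be told apart, and the part of these other cells in the results below was not tested.

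Of the 33 genes, 15 were higher in MDM than in microglia, 5 were lower and 13 did not pass the test. Over all 17216 genes 42.7% passed, 23% higher and 19.8% lower, against 60.6%, 45.5% and 15.2% of the 33. The 33 were chosen with earlier results of these data known, so these shares are no independent test of the set. The libraries of the 2 cell types did not overlap for 6 of the 33, 5 higher in MDM (Fdft1, Sqle, Srebf2, Insig1 and Elovl6) and 1 lower (Dhcr7), against 3.8% and 3.06% of all genes. The median difference of the 33 was 0.27 on the log2 scale, against 0.07 for all genes tested. The calls were uneven along the pathway. From acetyl-CoA to farnesyl diphosphate 5 of 7 enzymes were higher and 0 lower, from there to lanosterol 2 of 3 and 0, and from lanosterol to cholesterol 2 of 8 and 1. Among regulators 3 of 7 were higher and 3 lower, and among fatty acid enzymes 3 of 8 were higher and 1 lower. With equal totals set for all libraries, the median over all genes went from 0.07 to 0.29 and the share of higher among called genes from 53.7% to 67.4%. The direction of Mvk, Nsdhl, Ebp and Acly, none of them called, turned under that scaling.

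**Figure D1:**
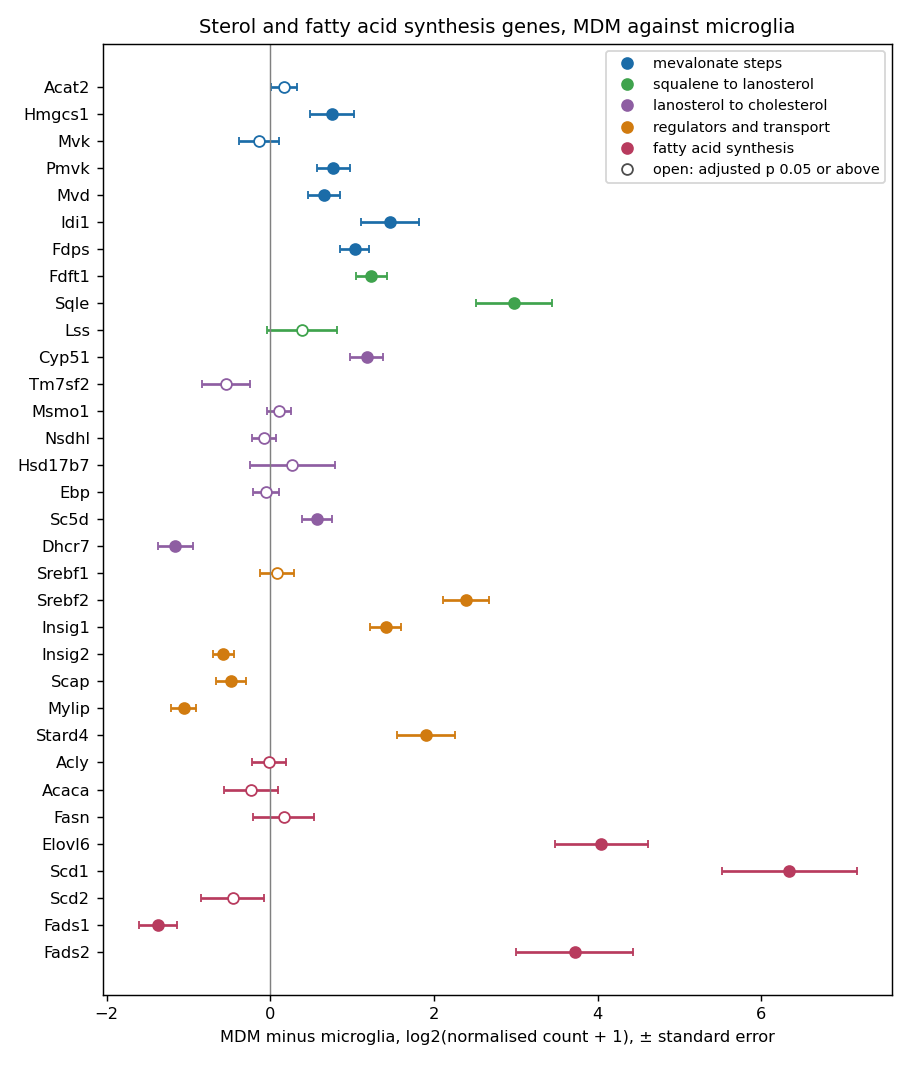
Difference between MDM (9 libraries) and microglia (12 libraries) for each of the 33 genes on the log2(normalised count + 1) scale, with bars for the standard error and filled points for adjusted p under 0.05. Scd1 is farthest to the right at 6.34 and Fads1 farthest to the left at -1.38, and most mevalonate and squalene enzymes lie right of 0.

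Of the 5 listed enzymes from acetyl-CoA to isopentenyl diphosphate, 3 were called higher in MDM, by 0.66 to 0.77 on the log2 scale. Hmgcs1, the synthase that makes HMG-CoA, had 891 to 2013 normalised counts in MDM (median 1663) and 277 to 1521 in microglia (median 1163), so the ranges overlapped widely, with a difference of 0.75 ± 0.27 (adjusted p = 0.0323). That call ended when any of 6 libraries was left out (T1s MDM 2, T1t microglia 1, T2s microglia 2, T2s MDM 3, T2t MDM 1 or T2t MDM 3), with differences over all single-library fits of 0.59 to 0.87 and adjusted p up to 0.0934. It also ended with no filter (adjusted p = 0.0624) and with quantile normalisation (adjusted p = 0.0525). Pmvk, a kinase that phosphorylates mevalonate phosphate, was at 608 to 1773 (median 969) against 418 to 1498 (median 607), a difference of 0.77 ± 0.21 (adjusted p = 0.00524). Mvd, the decarboxylase that makes isopentenyl diphosphate, was at 230 to 487 (median 278) against 140 to 355 (median 165), a difference of 0.66 ± 0.20 (adjusted p = 0.0105). In each of these genes the groups overlapped. Acat2, the thiolase that joins acetyl-CoA units, differed by 0.17 ± 0.16 and Mvk, the kinase that acts on mevalonate, by -0.14 ± 0.24, and neither passed the test.

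The isoprenoid enzymes at the end of this stretch differed more. Idi1, the isomerase that supplies the starter unit for isoprenoid chains, had 41.9 to 231 normalised counts in MDM (median 91.7) and 19.5 to 65.7 in microglia (median 30.6). It was 2.75-fold higher on the fitted scale (1.46 ± 0.35, adjusted p = 0.0024), with its highest MDM values, 172 and 231, in T2t. Fdps, the synthase of farnesyl diphosphate, had 873 to 4440 in MDM (median 1646) and 684 to 1341 in microglia (median 865), a difference of 1.03 ± 0.18 (adjusted p = 0.000108). Its T2t MDM libraries stood highest, at 4440 and 2392, and T1s MDM 1, at 873, lay within the microglia. Of the exon bases of Fdps 26.7% are shared with Gm43738, a protein-coding model on the same strand, so its counts are uncertain. Models on the other strand overlap 12.1% of the exon bases of Hmgcs1, 9.22% of Idi1 and 13.2% of Scap. Levels of Idi1 were low for an enzyme of this chain: per kilobase of exon its median in MDM was 26.2, against 391 for Fdps and 566 for Pmvk.

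At the entry into squalene and sterols, Fdft1 and Sqle separated the cell types and Lss did not. Fdft1, squalene synthase, had 646 to 1587 normalised counts in MDM (median 969) and 250 to 576 in microglia (median 416), and the groups did not overlap. It was 2.35-fold higher (1.23 ± 0.19, adjusted p = 3.67e-05). Of its exon bases 18.3% lie opposite exons of Ctsb, a cathepsin gene on the other strand with a median of 87698 in MDM and 724730 in microglia. Since the strand of the reads is not given in the sources used here, reads of the neighbours may be shared. Ctsb differed by -1.93 ± 0.27, and its part in the value of Fdft1 was not tested. Sqle, squalene epoxidase, a rate-limiting step of the sterol branch, was 728 and 1140 in T1s MDM, 867, 1050, 1245 and 1325 in T1t MDM, 1165 in T2s MDM, and 1796 and 1114 in T2t MDM. The 12 microglia libraries ran from 8.75 to 374 with a median of 209, so every MDM library was above every microglia library. The fitted difference was 2.98 ± 0.47, or 7.91-fold (adjusted p = 4.25e-05), and it was 2.42 ± 0.70 (adjusted p = 0.0199) without the 5 MDM libraries rich in T and NK transcripts. Lss, lanosterol synthase, the next enzyme, overlapped fully, with medians of 352 in MDM and 276 in microglia (0.39 ± 0.43, adjusted p = 0.492).

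Past lanosterol the pathway did not move together. Cyp51, the demethylase that acts on lanosterol, had 900 to 2840 normalised counts in MDM (median 1659) and 261 to 1276 in microglia (median 747), a difference of 1.18 ± 0.20 (adjusted p = 0.000109). Sc5d, a desaturase late in the pathway, was at 893 to 2441 (median 1855) against 372 to 1746 (median 1052), a difference of 0.57 ± 0.18 (adjusted p = 0.015) that was 0.44 ± 0.26 (adjusted p = 0.259) without the 5 libraries and 0.48 (adjusted p = 0.0767) without 3 microglia libraries rich in MDM or T and NK transcripts. Dhcr7, the reductase that makes cholesterol from 7-dehydrocholesterol and so competes with vitamin D synthesis for that sterol, went the other way. It had 635 to 1879 in MDM (median 1201) and 1885 to 2969 in microglia (median 2272), a difference of -1.16 ± 0.21 (adjusted p = 0.000198). The highest MDM library, T1s MDM 1, lay just under the lowest microglia library. Without the 5 libraries the difference was -1.19 ± 0.25 (adjusted p = 0.003). The other 5 enzymes, Tm7sf2, Msmo1, Nsdhl, Hsd17b7 and Ebp, differed by -0.54 to 0.27 and none passed the test. Tm7sf2, a sterol reductase, shares 532 exon bases on the same strand with Vps51, so its counts are uncertain.

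Among the regulators, Srebf2, which encodes the SREBP most tied to cholesterol synthesis, had the smallest adjusted p of the 33. It was 6012 and 6018 normalised counts in T1s MDM, 5537, 6419, 7304 and 5933 in T1t MDM, 6353 in T2s MDM, and 6668 and 2227 in T2t MDM. Microglia ran from 326 to 2139 (median 1151), so 8 of 9 MDM libraries stood far above them and T2t MDM 3 just above the highest. T2t MDM 3 had the highest sum of microglia markers among MDM (232750), whose part in its Srebf2 level was not tested. The difference was 2.39 ± 0.29, or 5.25-fold (adjusted p = 2.17e-06), and 1.94 ± 0.38 (adjusted p = 0.00188) without the 5 libraries. Srebf1, which encodes the SREBP most tied to fatty acids, overlapped throughout, at 1224 to 4595 in MDM (median 3037) and 1330 to 3734 in microglia (median 2482), with a difference of 0.08 ± 0.21 (adjusted p = 0.776). Per kilobase, Srebf2 therefore stood at a median of 1.43 times Srebf1 within an MDM library (1.25 to 2.80) and 0.358 times within a microglia library (0.111 to 0.705). Insig1, the anchor of SCAP whose own gene is an SREBP target, had 691 to 2391 in MDM (median 1130) and 274 to 662 in microglia (median 535), without overlap, and differed by 1.41 ± 0.19 (adjusted p = 9.08e-06). Its paralogue Insig2 was lower, at 915 to 1565 (median 1091) against 1182 to 2197 (median 1718), a difference of -0.57 ± 0.13 (adjusted p = 0.00162) that was -0.47 ± 0.19 (adjusted p = 0.0925) without the 5 libraries. The ratio of Insig2 to Insig1 per kilobase was 0.456 to 1.31 in MDM and 1.59 to 4.68 in microglia, and these ranges did not overlap.

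Scap, which encodes the carrier of the SREBP precursors, had 732 to 3161 normalised counts in MDM (median 1887) and 1767 to 3421 in microglia (median 2263). Its difference of -0.49 ± 0.18 (adjusted p = 0.0391) was the least stable of the calls. Leaving out any of 10 single libraries ended it (T1s MDM 2, T1t MDM 1 and 4, T2t MDM 3, T1s microglia 2, T1t microglia 4, T2s microglia 3 and T2t microglia 1, 2 and 3), and over the 21 such fits the difference ran from -0.63 to -0.35. It also ended with rescaled totals (-0.25, adjusted p = 0.411), with array weights (adjusted p = 0.0615) and with no filter (adjusted p = 0.0646). Mylip, the ligase gene turned on by liver X receptors, was 4334 and 3122 in T1s MDM, 2509, 3343, 2619 and 2671 in T1t MDM, 4975 in T2s MDM, and 2772 and 2012 in T2t MDM, against 4615 to 10107 in microglia (median 7116). Only T2s MDM 3 reached into the microglia range, and the difference was -1.06 ± 0.15 (adjusted p = 1.32e-05). Stard4, a soluble carrier that moves sterol between membranes, was 173 and 241 in T1s MDM, 1016, 712, 597 and 574 in T1t MDM, 272 in T2s MDM, and 1137 and 502 in T2t MDM, against 6.45 to 309 in microglia (median 154). It was 3.75-fold higher (1.91 ± 0.35, adjusted p = 0.000251), with overlap from the spontaneous MDM libraries.

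**Figure D2:**
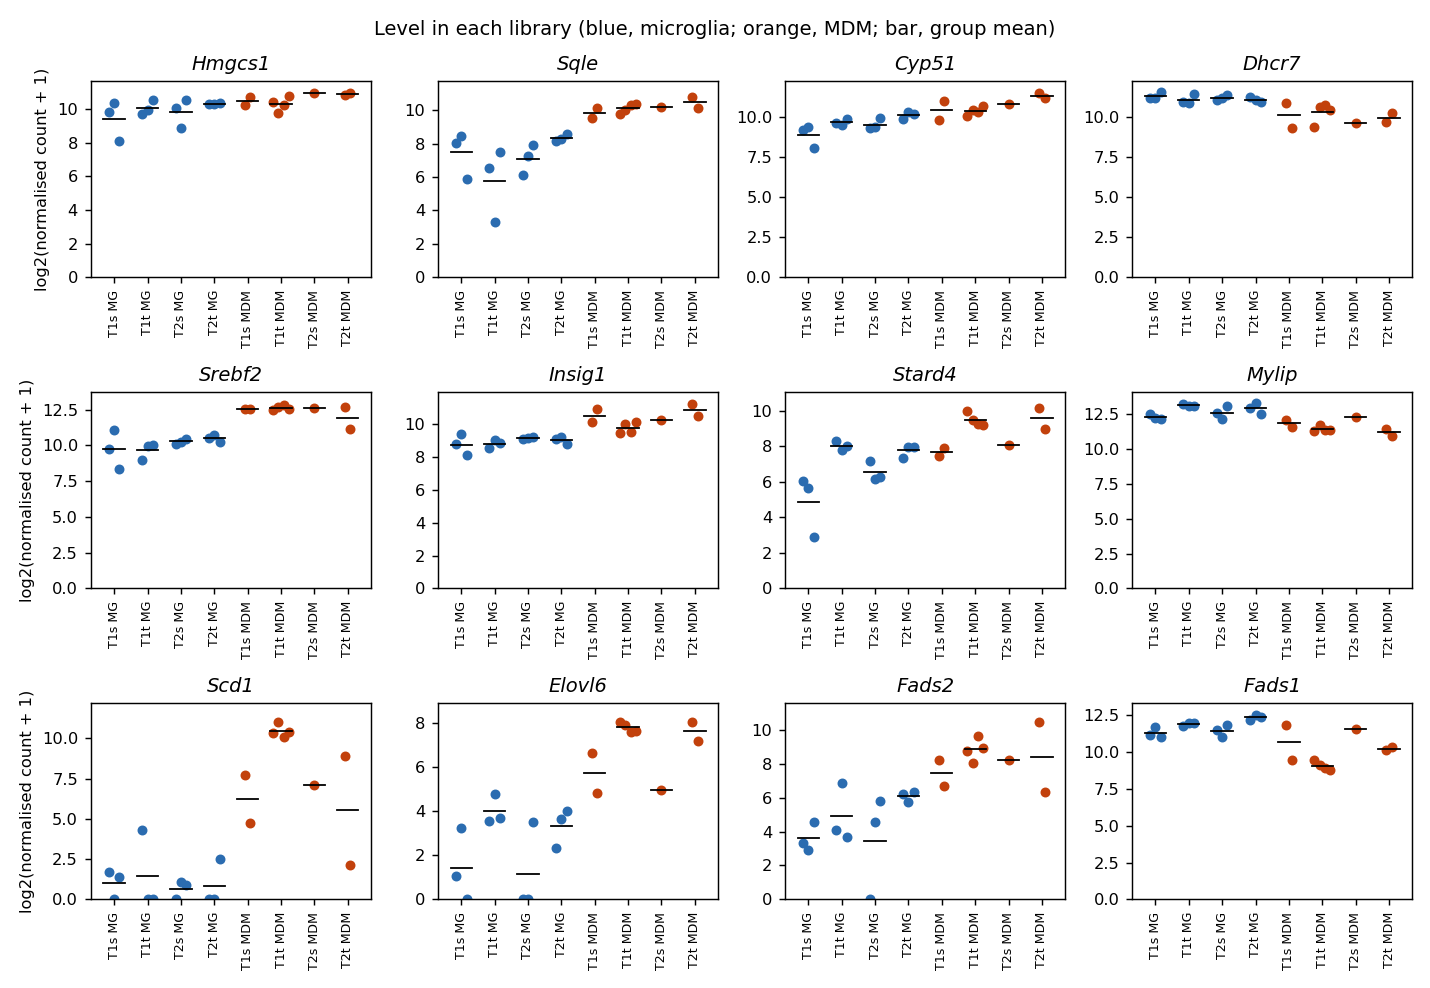
Level of 12 of the genes in each library, on the log2(normalised count + 1) scale, by tumour class and cell type, with a bar at each group mean. Sqle, Srebf2, Insig1 and Elovl6 are higher in every MDM library than in any microglia library and Dhcr7 lower, while Scd1, Fads2 and Fads1 spread widely within MDM.

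Promoter sequences were looked at because sterol genes are known to be switched through short elements close to their start. RefSeq promoters (GRCm38.p6, 250 bases before to 50 bases after a start) were at hand for 26 of the 33 genes, and none for Fdft1, Sqle, Scd1, Scd2, Fdps, Fads1 and Stard4. A sterol regulatory element of the form TCACNCCAC, searched on both strands, was in 1 of 26 genes, Hmgcs1 (TCACCCCAC, from 137 to 129 bases before the start), and in 1.49% of all genes of the table with a promoter. The box CCAAT, to which NF-Y binds beside SREBP, was in 21 of 26 genes (80.8%) on either strand, against 41.2% of all genes. Neither pattern overlaps the other in the stretches printed. The 250 bases before the start are shown for an enzyme, Hmgcs1, for the regulators Srebf2 and Insig1, which were higher in MDM, and for Mylip, which was lower, each on the plus strand, 5′ to 3′, with matches in capitals (ATTGG is CCAAT on the other strand).
Hmgcs1, chr13:119690101-119690350: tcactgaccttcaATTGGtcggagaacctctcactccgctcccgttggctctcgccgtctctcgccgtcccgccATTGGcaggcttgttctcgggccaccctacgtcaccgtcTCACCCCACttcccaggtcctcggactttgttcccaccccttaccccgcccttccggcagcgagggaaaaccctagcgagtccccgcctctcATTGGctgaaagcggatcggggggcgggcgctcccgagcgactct
Srebf2, chr15:82147019-82147268: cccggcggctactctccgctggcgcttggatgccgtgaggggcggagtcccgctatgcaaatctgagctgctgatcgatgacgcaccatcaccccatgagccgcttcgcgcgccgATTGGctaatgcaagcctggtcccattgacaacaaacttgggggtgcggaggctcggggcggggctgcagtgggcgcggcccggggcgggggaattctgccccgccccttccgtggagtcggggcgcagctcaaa
Insig1, chr5:28071162-28071411: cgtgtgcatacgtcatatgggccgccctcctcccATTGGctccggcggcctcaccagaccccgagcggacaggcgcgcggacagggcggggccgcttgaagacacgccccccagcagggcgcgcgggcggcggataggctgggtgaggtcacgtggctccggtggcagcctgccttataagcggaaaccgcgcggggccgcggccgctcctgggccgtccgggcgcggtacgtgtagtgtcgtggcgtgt
Mylip, chr13:45389492-45389741: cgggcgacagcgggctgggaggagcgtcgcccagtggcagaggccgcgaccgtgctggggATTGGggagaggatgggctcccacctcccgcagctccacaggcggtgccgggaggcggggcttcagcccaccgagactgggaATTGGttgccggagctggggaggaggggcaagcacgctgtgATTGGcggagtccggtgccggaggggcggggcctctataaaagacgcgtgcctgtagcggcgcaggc
Hmgcs1 has 3 boxes in the stretch shown and a further box after the start, while Srebf2 and Insig1 have 1 and Mylip has 3. Genes higher and lower in MDM thus both carry the box. A match is a description of letters and not evidence of a bound site, and no match says only that these letters are not in the window.

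Fatty acid synthesis divided by step. The enzymes that make palmitate from citrate overlapped between the cell types and did not pass the test. Acly, ATP citrate lyase, had medians of 6976 normalised counts in MDM and 6792 in microglia (-0.02 ± 0.20, adjusted p = 0.957). Acaca, acetyl-CoA carboxylase, had medians of 102 and 125 (-0.24 ± 0.33, adjusted p = 0.589). Fasn, fatty acid synthase, had medians of 1131 and 659 (0.16 ± 0.37, adjusted p = 0.757), and its difference was -0.74 ± 0.40 (adjusted p = 0.21) without the 5 libraries, 4 of which, T1t MDM, had 1046 to 2597.

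The largest differences of the 33 were those of Scd1, Elovl6 and Fads2, among the enzymes that elongate and desaturate. Each of these genes lies near the floor in microglia. Elovl6, which elongates palmitate, was 99.3 and 27.3 normalised counts in T1s MDM, 266, 243, 194 and 200 in T1t MDM, 30.0 in T2s MDM, and 267 and 143 in T2t MDM, against 0 to 26.3 in microglia (median 9.34). The groups did not overlap, and the difference was 4.04 ± 0.57 (adjusted p = 1.36e-05), or 2.81 with a pseudocount of 8. Scd1, a stearoyl-CoA desaturase that puts the first double bond into saturated fatty acids, was 208 and 26.0 in T1s MDM, 1286, 2118, 1107 and 1323 in T1t MDM, 135 in T2s MDM, and 486 and 3.49 in T2t MDM. In microglia it was 0 to 18.5, and 6 of 12 libraries had no reads. Its difference of 6.34 ± 0.82 (adjusted p = 5.6e-06) was 4.29 with a pseudocount of 8 and 4.32 ± 0.97 (adjusted p = 0.00462) without the 5 libraries. T2t MDM 3 lay inside the microglia range for this gene. Its neighbour Scd2, 87.6 kb away on chromosome 19 of GRCm38, the form known as prominent in the brain, had 906 to 5903 in MDM (median 3976) and 1507 to 9867 in microglia (median 4161) and did not pass the test (-0.46 ± 0.38, adjusted p = 0.355).

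The desaturases of polyunsaturated fatty acids went in opposite directions. Fads2, which carries out the first desaturation of dietary polyunsaturates, was 291 and 101 normalised counts in T1s MDM, 435, 265, 788 and 476 in T1t MDM, 301 in T2s MDM, and 1422 and 79.5 in T2t MDM, against 0 to 115 in microglia (median 22.8). Only T1s MDM 2 and T2t MDM 3 lay within the microglia range, and the difference was 3.72 ± 0.72 (adjusted p = 0.000349), or 2.95 ± 0.96 (adjusted p = 0.0373) without the 5 libraries. Fads1, which carries out a later desaturation on the same route, was 3747 and 726 in T1s MDM, 716, 563, 481 and 450 in T1t MDM, 3044 in T2s MDM, and 1126 and 1306 in T2t MDM, against 2054 to 5824 in microglia (median 3677). T1s MDM 1 and T2s MDM 3 were within the microglia range and the other 7 were below it. The difference was -1.38 ± 0.24 (adjusted p = 0.000108), and -0.85 ± 0.34 (adjusted p = 0.084) without the 5 libraries. The genes lie 81.4 kb apart on chromosome 19 of GRCm38, and per kilobase Fads1 stood at 0.417 to 11.2 times Fads2 in MDM (median 1.46) and 24.4 to 349 times in the 11 microglia libraries with reads of Fads2 (median 62.3).

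**Figure D3:**
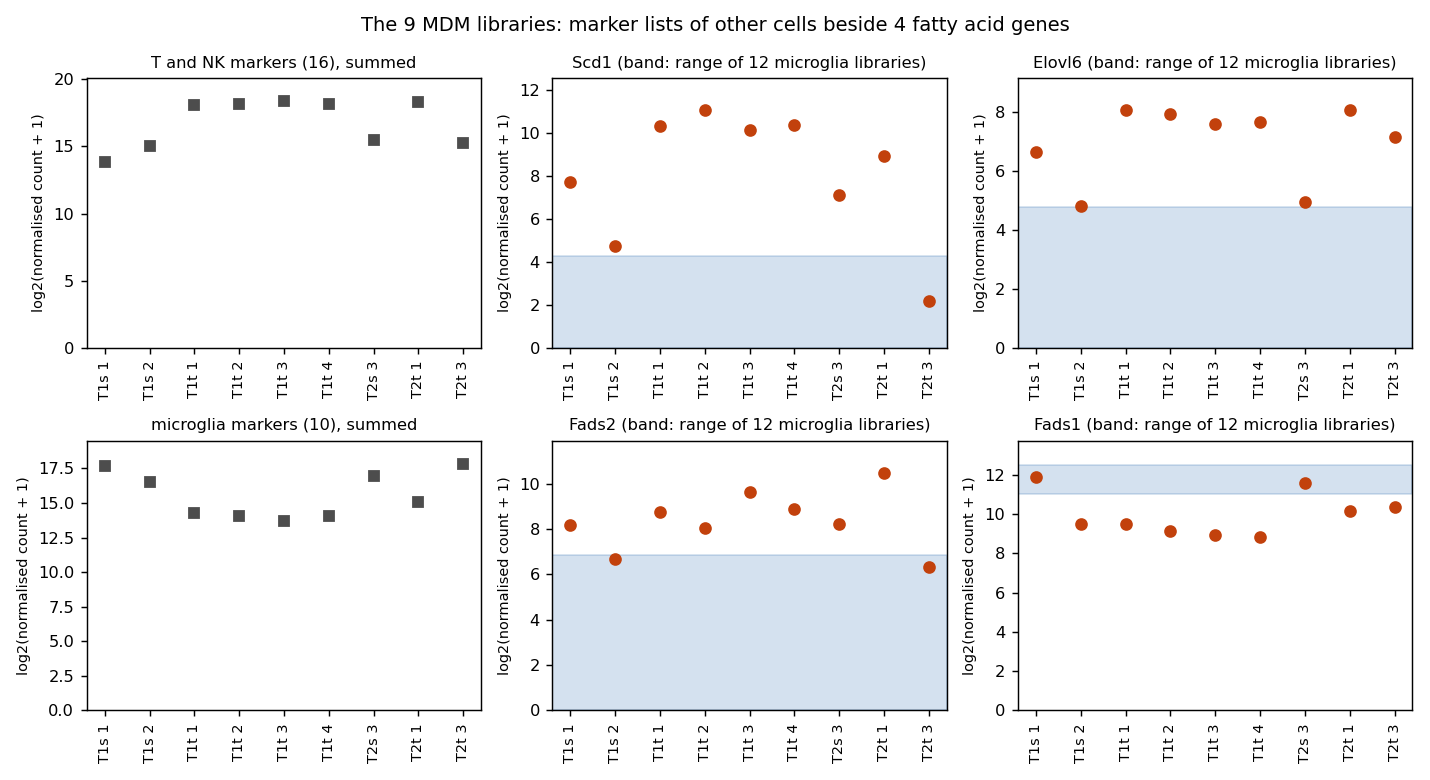
The 9 MDM libraries by summed T and NK markers and summed microglia markers (left) and by Scd1, Elovl6, Fads2 and Fads1 (log2(normalised count + 1)), with the range of the 12 microglia libraries shaded. The 4 T1t libraries and T2t MDM 1 have the highest T and NK sums, the lowest microglia marker sums and the 5 highest values of Scd1, from 486 to 2118.

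Leaving out those 5 MDM libraries, and with them the T1t class, kept 12 of the 15 higher calls and 3 of the 5 lower calls, with no other gene of the 33 called. The calls that ended were those of Hmgcs1 (0.94 ± 0.39, adjusted p = 0.0978), Mvd (0.85 ± 0.30, adjusted p = 0.0504), Sc5d, Insig2 and Fads1. For Hmgcs1 and Mvd the difference was as large as before, and the call of Mvd also ended with quantile normalisation (adjusted p = 0.0502). Over all genes the number of calls went from 7356 to 3987. The 4 remaining MDM libraries still had T and NK sums above every microglia library and microglia marker sums of 95328 to 232750, against 583269 to 1327760 in microglia.

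**Figure D4:**
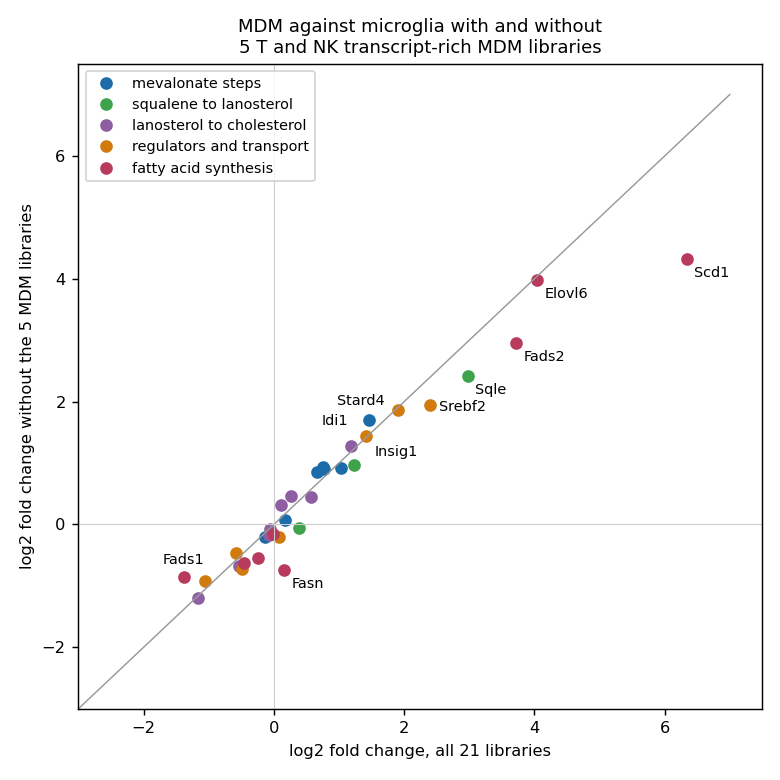
Log2 fold change of the 33 genes between MDM and microglia with all 21 libraries (x axis) and without the 5 MDM libraries rich in T and NK transcripts, which leaves T1s, T2s and T2t (y axis), with the line of equal values. Most genes lie near the line, Scd1 drops from 6.34 to 4.32, and Fasn crosses 0 from 0.16 to -0.74.

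Within single tumour classes fewer genes passed, against a background that also differed. In T1s, 6 of 33 were higher and 0 lower (13.4% of all genes passed, 8.52% higher and 4.86% lower), namely Cyp51, Srebf2, Insig1, Stard4, Elovl6 and Scd1. Without T1s MDM 2 this count was 0. In T1t, 9 were higher and 3 lower, or 36.4% of the 33 against 34.1% of all genes (18.2% higher and 15.9% lower). All 4 T1t MDM libraries are among the 5 rich in T and NK transcripts, so the class and those transcripts cannot be told apart. The largest higher calls in T1t were Scd1 at 9.04 ± 1.33 and Sqle at 4.34 ± 0.75, and the largest lower call was Fads1 at -2.85 ± 0.38. In T2s, with 1 MDM library whose spread is assumed to be that of the other groups, 2 passed (Srebf2 at 2.36 ± 0.70 and Scd1 at 6.42 ± 2.01), against 10.7% of all genes. Without T2s microglia 1 or 2 none did. In T2t, 8 were higher and 4 lower, 36.4% of the 33 against 18% of all genes (9.52% higher and 8.45% lower), but only 4 passed without T2t MDM 1, and 2, Scap and Mylip, when the 5 libraries were left out. In T2t the difference of Scd1 was 4.71 ± 1.59 (adjusted p = 0.0467), and 1.33 (adjusted p = 0.686) without T2t MDM 1. Acly (-1.19 ± 0.39, adjusted p = 0.0404) and Scap (-1.58 ± 0.35, adjusted p = 0.00529) were called lower in T2t, and Srebf2 missed the threshold there (1.41 ± 0.55, adjusted p = 0.0841). The call of Acly ended when any 1 of the 5 T2t libraries was left out (adjusted p up to 0.208), and that of Scap without T2t MDM 3 (adjusted p = 0.0592). A difference between classes was not shown by these counts, and the interaction of cell type with tumour type called 0 of 33 genes (0.0871% of all genes).

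**Figure D5:**
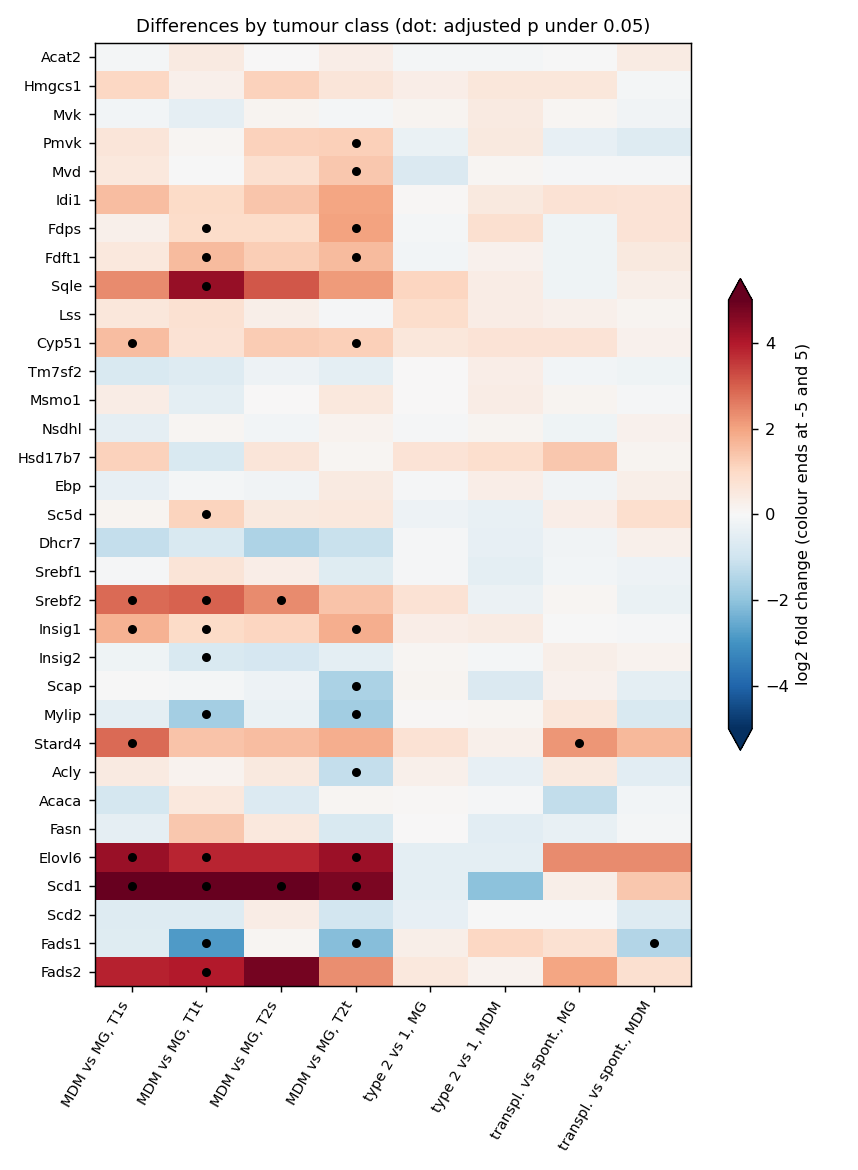
Log2 fold change of each gene between MDM and microglia (MG) in each tumour class, and between tumour types and between models within each cell type, with a dot where adjusted p is under 0.05. Scd1 and Elovl6 are red in all 4 classes, Fads1 and Mylip are blue in T1t and T2t, and the 4 right-hand columns hold 2 dots, Stard4 and Fads1.

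Tumour type made no difference that passed the test. Between type 2 and type 1 microglia 0 of 33 genes were called by limma-trend (0.47% of all genes). Mvd was at 149 to 163 normalised counts in T2s, 140 to 152 in T2t, 167 to 355 in T1s and 240 to 255 in T1t. All 6 type 2 libraries lay below all 6 type 1 libraries, which held for 0.325% of all genes, but the difference of -0.73 ± 0.24 did not pass (adjusted p = 0.285). Between type 2 and type 1 MDM 0 were called (1.57% of all genes).

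Few of the genes were called between models. Between transplanted and spontaneous microglia 1 of 33 was called (3.03%, near the 1.84% of all genes), the sterol carrier gene Stard4. It was 63.6, 48.6 and 6.45 normalised counts in T1s and 145, 71.6 and 76.1 in T2s, against 309, 223 and 252 in T1t and 163, 248 and 250 in T2t. The 6 transplanted libraries were above the 6 spontaneous ones, as in 0.714% of all genes, and the difference was 2.19 ± 0.43 (adjusted p = 0.0144). The call held in each of the 12 fits without 1 microglia library (1.71 to 2.49). It ended when the fit held only microglia (adjusted p = 0.0923). It also ended when T1s microglia 2 and T1t microglia 1 and 2, the 3 rich in MDM or T and NK transcripts, were left out together (2.37, adjusted p = 0.0669). T2s microglia 2, kept in that fit, had a sum of MDM markers of 32379, against 36843 in T1s microglia 2. MDM showed the same order for Stard4, with the 6 transplanted libraries at 502 to 1137 above the 3 spontaneous at 173 to 272, as in 4.22% of all genes, but its difference of 1.63 ± 0.56 did not pass (adjusted p = 0.0896). Elovl6 differed by 2.37 ± 0.69 in microglia (adjusted p = 0.0829) and by 2.37 ± 0.90 in MDM (adjusted p = 0.124), and passed in neither.

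Between transplanted and spontaneous MDM 1 of 33 was called (3.03%, below the 7.06% of all genes). This was Fads1, lower in transplanted tumours by -1.46 ± 0.37 (adjusted p = 0.0218), a call that ended without T2t MDM 1 (-1.41, adjusted p = 0.0686), with rescaled totals (-1.14, adjusted p = 0.136) and when only MDM were fitted (adjusted p = 0.143). Its size rested on T1s MDM, at -0.87 without T1s MDM 1 and -2.06 without T1s MDM 2. Of the 6 transplanted MDM libraries 5 are rich in T and NK transcripts. The remaining library, T2t MDM 3, had 1306 of Fads1, below T1s MDM 1 and T2s MDM 3 and above T1s MDM 2. Without the 5 libraries only T2t MDM 3 and T2s MDM 3 are left to compare, 1 library each, and they differed by -1.22, which has no replicate check. In microglia Fads1 differed by 0.77 ± 0.29 in the other direction (adjusted p = 0.158), at 2054 to 3764 in spontaneous and 3589 to 5824 in transplanted tumours.

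The gap between MDM and microglia depended on the model for 2 of 33 genes (2.24% of all genes), both with a wider gap in transplanted tumours. For Fads1 the difference between MDM and microglia was -0.61 ± 0.45 in T1s and 0.10 ± 0.57 in T2s, but -2.85 ± 0.38 in T1t and -2.14 ± 0.45 in T2t, and the interaction was -2.24 ± 0.47 (adjusted p = 0.0189). For Mylip it was -0.47 ± 0.29 in T1s and -0.35 ± 0.36 in T2s, but -1.70 ± 0.24 in T1t and -1.73 ± 0.29 in T2t, and the interaction was -1.31 ± 0.30 (adjusted p = 0.027). The call of Mylip ended without T1s MDM 1, T2s MDM 3, T2t microglia 1 or T2t microglia 2 (-1.43 to -1.19 over all single-library fits, adjusted p up to 0.0684), with rescaled totals (adjusted p = 0.125), with quantile normalisation (adjusted p = 0.0618) and without the 3 microglia libraries (adjusted p = 0.0817). That of Fads1 held in all 21 single-library fits and ended with rescaled totals (-2.07, adjusted p = 0.0812). Without the 5 libraries the interaction can be had from the type 2 classes only, with 1 MDM library per model, and its values of -2.13 for Fads1 and -1.61 for Mylip have no replicate check among MDM. These interactions share their libraries with the comparisons by model above.

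Other genes around the pathway were read from lists beside the 33, to be set against 23% higher and 19.8% lower over all genes. Of 9 further sterol and isoprenoid genes 2 were higher in MDM and 2 lower. Lbr, a nuclear envelope protein that is also a sterol reductase, had medians of 8777 in MDM and 1634 in microglia (2.27 ± 0.30), and Osbpl5, a lipid transfer protein, 1227 and 13.2 (5.21 ± 0.72). Tmem97, the sigma-2 receptor, which binds sterols, was lower (-1.20 ± 0.19), as was Ebpl, a relative of Ebp (-0.48 ± 0.19). Of 23 further genes of fatty acid and lipid synthesis 5 were higher and 8 lower. The higher included the elongases Elovl7 (5.99 ± 0.66) and Elovl5 (1.25 ± 0.15) and Acss2, which makes acetyl-CoA from acetate (medians 1135 and 65.4, 4.54 ± 0.80). The lower included the elongation dehydratases Hacd2 (-1.11 ± 0.15) and Hacd3 (-0.89 ± 0.15) and the lipogenic factor Thrsp (medians 17.9 and 1390, -5.26 ± 0.73).

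Of 16 genes that process SREBP or act through liver X and related receptors, 6 were higher and 6 lower. Nr1h3, which encodes liver X receptor alpha, had medians of 706 in MDM and 116 in microglia (3.08 ± 0.39), and the NF-Y subunit genes Nfyb (0.83 ± 0.16) and Nfyc (0.70 ± 0.13) were higher, while the third subunit gene, Nfya, named after its value was seen, was lower (-0.60 ± 0.21). Mlxipl, which encodes the sugar-sensing lipogenic factor ChREBP, had medians of 54.8 and 2115 (-3.69 ± 0.39), and Rxra, the partner of liver X receptors (-1.51 ± 0.22), was lower too. Of 16 genes of cholesterol efflux, uptake and storage 1 was higher, Cyp27a1, which makes an oxysterol (1.64 ± 0.21), and 9 were lower. Among these were the exporter Abca1 (medians 1793 and 9482, -2.19 ± 0.27), the lysosomal transporter Npc1 (-1.03 ± 0.14) and the lipoprotein lipase Lpl (-2.15 ± 0.39). Of 22 proliferation genes 2 were higher and 1 lower. The lists were not tested against each other.

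Within a cell type the 33 genes were not led by the same libraries. Among microglia, T1s microglia 3, which has the smallest size factor, was the highest of 12 in 7 genes and the lowest in 13. Those 13 include Lss (27.4 normalised counts), Srebf2 (326) and Hsd17b7 (6.45). Among MDM, T2t MDM 1 was the highest of 9 in 11 genes. T2t MDM 3, which had the highest sum of microglia markers among MDM (232750), was the lowest in 9. Across the 12 microglia libraries Srebf2 rose and fell with Insig1 (Pearson's r = 0.946, two-sided permutation p = 2e-05, adjusted p = 8e-04 over 40 relations with Srebf2 in microglia and MDM; Spearman's rho = 0.895, permutation p = 0.00019, adjusted p = 0.0076), with r = 0.807 without the 2 libraries farthest from the median of Srebf2. T1s microglia 2, kept in that check, was the highest microglia library for both Srebf2 (2139) and Insig1 (662) and had the highest sum of MDM markers among microglia (36843), whose part was not tested. Its relation with Lss (r = 0.838, permutation p = 0.00103, adjusted p = 0.0206; rho = 0.692, permutation p = 0.0153, adjusted p = 0.153) had r = 0.401 without those libraries and so rests on them. The relations of Srebf2 were with the sterol enzymes, Insig1 and Stard4, 20 in each cell type. In microglia 2 of 20 passed by Pearson's r and 1 by Spearman's rho. There r was positive in 10 of 20, with a median of -0.08, and 0.15 without the 2 libraries. As a set these genes did not follow Srebf2 in microglia. In the 9 MDM libraries 0 of 20 relations passed, by exact permutation. Their median r was -0.14, and 0.38 without the 2 libraries farthest from the median of Srebf2, and for Insig1 r was -0.16 and 0.67.

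Per kilobase of exon, the order of levels also differed between the cell types. In MDM the highest medians were those of Acly (1321), Ebp (1207), Mylip (857) and Srebf2 (838), whose ranges over libraries overlapped, and the lowest was that of Acaca (5.95). In microglia they were those of Mylip (2201), Acly (1287), Ebp (1141) and Fads1 (764), and the lowest were Elovl6 (1.45) and Scd1 (0.0874). Srebf2 had rank 4 of 33 in MDM and rank 19 in microglia, at 838 and 160 per kilobase.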

How the data were processed

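The authors deposited 1 table of 30749 genes in 21 columns. The tools were STAR 2.7.8a and DESeq2 (version not given in the sources used here) and the build was mm10, per the submitters' processing notes. Per the labels' protocols, RNA was extracted with TRIzol and amplified with SMART-Seq v4. The deposited values are log2-like, with a floor of 4.22, the form of a variance-stabilising transformation, where the design had assumed normalised counts. The transformation was inverted: with a size factor for each library (0.62 to 1.55), all values gave whole reads, to a tolerance of 1e-06. Of the 25 labelled samples 4, normal brain microglia, were not analysed here. Between 16297 and 21435 genes were detected per library.

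Normalised counts were tested as log2(count + 1) with limma 3.58.1 (limma-trend, R 4.3.3), on the genes that reached 10 in 3 or more libraries. The fit had a mean for each of the 8 groups, weighted equally within a contrast. The script was tested on simulated data. Correlations used permutation tests (scipy 1.17.1). Positions and promoters are from RefSeq GRCm38.p6 and exon lengths and overlaps from GENCODE for GRCm38, the build of mm10. Alternatives were quantile normalisation, a pseudocount of 8, no filter or a filter at 50, rescaled totals, only the compared groups, a replicate block, the deposited values, voom, array weights and libraries left out. The genes and lists were chosen with earlier results of these data known. Values by library, or the lowest, median and highest, are given for up to 3 called genes per step of the pathway, for genes called by model, and for Srebf1, Srebf2, Insig1, Insig2 and Mylip; up to 3 genes per direction of each other list are named, and 1 that the rule gave is not reported here.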

Additional observations from a re-analysis of the deposited data

Results flagged for a closer look

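In the 4 T1t MDM libraries, the 1 group large enough, each of the 33 genes was looked at for a library whose gap to the nearest other was large against the whole range (Dixon's ratio). Mvd in T1t MDM 3 stood above the others at 279 normalised counts, against 230 to 236. Scd2 in T1t MDM 1 stood below the others at 2793, against 3976 to 4175. This picked 2 of 33 genes, and chance alone picks about 1 in 20 groups.

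The difference between MDM and microglia depended on the model for Fads1 (interaction -2.24, adjusted p = 0.0189 by limma-trend) and Mylip (-1.31, adjusted p = 0.027), both with a wider gap in transplanted tumours. Without the 5 MDM libraries rich in T and NK transcripts these were -2.13 and -1.61, from the type 2 classes only, with 1 MDM library per model and so no replicate check among MDM.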

How the results depend on the processing

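Of the 20 calls between MDM and microglia, 12 higher and 2 lower held under every alternative run, and 14 higher and 4 lower in all 21 fits without 1 library. Over those fits the calls numbered 18 to 20 (14 to 15 higher, 4 to 5 lower), and over the other alternatives 15 to 20. Without the 5 MDM libraries rich in T and NK transcripts 3 were lower.

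Leaving out 1 library gave 0 to 6 calls in T1s, 10 to 12 in T1t, 0 to 3 in T2s and 4 to 9 in T2t. By model it gave 1 to 3 in microglia, 0 to 2 in MDM and 1 to 2 for the interaction. By tumour type it gave 0 in microglia, 0 to 1 in MDM and 0 for the interaction. In T2s, 1 was called with a pseudocount of 8, with quantile normalisation and with rescaled totals, 0 with no filter and 9 with array weights. In T1s, 0 were called with only the compared groups, where 0 of all genes were called too. Array weights also gave the most calls over all genes in T2s (3243) and between models in microglia (2310). In T2t, 2 were called without the 5 MDM libraries. Between models, microglia gave 0 with only the compared groups, 0 without the 3 microglia libraries and 8 with array weights. MDM gave 3 with a pseudocount of 8, on the deposited values and with voom, 2 with rescaled totals and with only the compared groups, and 0 without the 5 libraries. The interaction gave 0 with rescaled totals and without the 5 libraries, and 1 with quantile normalisation and without the 3 microglia libraries. Without the 5 no T1t MDM are left, and by model 1 MDM library per arm remains, so the counts of 0 in MDM and for the interaction say nothing about stability; fewer libraries also entered the fits without the 3; elsewhere the cause was not tested.

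Genes that turned were not called between MDM and microglia. With rescaled totals these were Mvk (0.10), Nsdhl (0.16), Ebp (0.18) and Acly (0.22), and with array weights Hsd17b7 (-0.058) and Acly (0.072). Without the 5 MDM libraries they were Lss (-0.060), Srebf1 (-0.21) and Fasn (-0.74), and without the 3 microglia libraries Mvk (0.031), Srebf1 (-0.036) and Fasn (-0.036). Single libraries turned Acly (-0.19 to 0.084), Srebf1 (-0.060 to 0.23), Ebp (-0.13 to 0.0023), Fasn (-0.22 to 0.54) and Hsd17b7 (-0.16 to 0.51).

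Whether same-numbered MDM and microglia of a class come from the same tumour is not stated. For some libraries the number in the column name differs from the sample number in the title. In each such case it equals the number of a library of the other cell type in that class. The deviations of same-numbered libraries correlated at 0.0351 to 0.241 over 7 pairs, over 0.1 in 2. Of these libraries 14 of 14 correlated best with their own number. Names and data thus both hint at pairs, and the main fit treated the libraries as unpaired. In T1s and T2t, with 2 MDM libraries each, the deviations of these mirror each other, so the 14 are not independent. With the replicate block as a fixed effect Nsdhl (0.0080), Hsd17b7 (-0.21), Ebp (0.12), Srebf1 (-0.12) and Fasn (-0.069) turned, Hmgcs1 (adjusted p = 0.0706) and Insig2 (adjusted p = 0.0534) were no longer called, and Scd2 was (-0.94, adjusted p = 0.0173).

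Calls over all genes ranged from 3987 (without the 5) to 7902 (array weights) between MDM and microglia, around 7356. In T1s they were 0 to 3104, around 2304, in T1t 3360 to 7478, around 5867, in T2s 782 to 3243, around 1843, and in T2t 671 to 3665, around 3094. By type they were 5 to 303 in microglia, around 81, and 38 to 1022 in MDM, around 271. By model they were 111 to 2310 in microglia, around 317, and 366 to 2355 in MDM, around 1215. The interactions gave 3 to 215 with type, around 15, and 165 to 933 with model, around 385. The planned edgeR fit was not run, voom was run on the recovered reads, and a fit of only the compared groups is the main one where all 8 enter. Scd1, Elovl6 and Fads2 lie near the floor in microglia, where some libraries have no reads, and the part of depth in this was not tested.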
